A study of Mus musculus with 2 samples.

Results

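Long boundary-free intervals are stretches of an autosome in which no contact-domain boundary was listed. They were chosen by boundary position alone, as the spaces between the midpoints of neighbouring boundaries that measured 840 kb or more and held under 5% unknown bases in GRCm38. Of 7347 intervals in all, 6975 were autosomal and 325 met the rule, which is 4.66% of the autosomal ones. The other autosomal intervals were 6635 under 840 kb and 15 long ones set aside for unknown bases.

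The boundaries were mapped by in situ Hi-C, which counts contacts between parts of the genome inside the nucleus, with the restriction enzyme DpnII. The single group comprised 2 biological replicates, 170000 and 220000 mature olfactory sensory neurons that expressed the odorant receptor gene Olfr1507. They were sorted by GFP from MOR28-GFP mice, which were adults of both sexes on the 129P2/OlaHsd background, with the olfactory epithelium as the source. No treatment was listed, and the fixation was with 1% formaldehyde. The authors pooled both replicates before listing boundaries, so no value below has a replicate error, and the depth behind the list is unknown. A list of positions measures no expression, so the labelled cell type could not be set against its marker genes here.

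In interphase nuclei, DNA within a domain meets itself more often than it meets the neighbouring domain. Many domain boundaries lie at bound CTCF, a zinc finger protein that stops the cohesin complex as it extrudes loops, and many others lie at active gene promoters. Long stretches with few genes, known as gene deserts, often surround genes of development and of the nervous system and can hold their distant enhancers. Repeated gene families, such as the olfactory and vomeronasal receptors, also occupy long stretches, in which short reads are hard to place.

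Sequences from 4 of these intervals are shown for the CTCF motif matches of long gene-poor intervals and for the promoters that lie in them. The matches to the CTCF core motif are shown in capitals with the neighbouring genome bases in lower case, each read 5′ to 3′ on the strand of the motif (GRCm38). The interval of Klhl1, chr14:93917501-96877500, held a single match in its 2960 kb, between annotated genes and 770 kb from its left boundary. The interval of Nr2f2, chr7:68832501-71257500, held 3, of which the first lay 11.1 kb inside its left boundary. At the right boundary of the Mgat4c interval, chr10:100617501-102442500, a pair of matches lay just outside the interval, within 10 kb of its edge.
Klhl1 interval, reverse strand, chr14:94687862-94687897: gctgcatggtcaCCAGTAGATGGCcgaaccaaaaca
Nr2f2 interval, first, forward strand, chr7:68843554-68843589: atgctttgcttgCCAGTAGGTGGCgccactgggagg
Nr2f2 interval, second, forward strand, chr7:68977280-68977315: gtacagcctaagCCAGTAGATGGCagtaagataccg
Nr2f2 interval, last, reverse strand, chr7:69957837-69957872: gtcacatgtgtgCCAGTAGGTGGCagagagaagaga
Mgat4c right boundary, nearer, forward strand, chr10:102449638-102449673: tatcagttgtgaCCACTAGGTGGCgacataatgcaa
Mgat4c right boundary, farther, forward strand, chr10:102451940-102451975: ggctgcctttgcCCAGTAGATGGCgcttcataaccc

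The promoters of Klhl1 and of Slitrk5, which encodes a synaptic adhesion protein, are shown because they sit in equally AT-rich intervals and differ in base content. Each runs from 250 bases before to 50 bases after the start site, from the RefSeq table for GRCm38.p6, with CpG dinucleotides in capitals. The Klhl1 stretch covers the GENCODE start site of that gene, chr14:96519102, which was used for distances. The Slitrk5 stretch lies downstream of its GENCODE start site, chr14:111675097, and wholly inside the gene body. The contrast in base content is thus between stretches placed differently to the GENCODE start sites. The Klhl1 promoter held 5 CpGs at 47.0% GC, in an interval of 36.3% GC. The Slitrk5 promoter held 35 CpGs at 74.3% GC, in an interval of 36.4% GC.
Klhl1 promoter, reverse strand, chr14:96518985-96519284: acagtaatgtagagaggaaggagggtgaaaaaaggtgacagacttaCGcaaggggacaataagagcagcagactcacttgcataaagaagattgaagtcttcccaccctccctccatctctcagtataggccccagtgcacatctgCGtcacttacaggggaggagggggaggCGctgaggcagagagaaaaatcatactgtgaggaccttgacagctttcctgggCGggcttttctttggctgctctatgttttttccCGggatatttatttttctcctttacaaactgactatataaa
Slitrk5 promoter, forward strand, chr14:111675777-111676076: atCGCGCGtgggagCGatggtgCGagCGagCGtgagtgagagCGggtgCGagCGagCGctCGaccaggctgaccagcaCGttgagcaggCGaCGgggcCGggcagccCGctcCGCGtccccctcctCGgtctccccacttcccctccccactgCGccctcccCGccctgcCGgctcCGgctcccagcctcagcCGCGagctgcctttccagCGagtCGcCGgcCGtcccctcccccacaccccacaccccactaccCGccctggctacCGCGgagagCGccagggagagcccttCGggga

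The 325 long intervals covered 383 Mb, or 15.9% of the assembled autosomes. Their median length was 1060 kb (quartiles 930 and 1310 kb), against 255 kb (180 and 372.5 kb) for the intervals under 840 kb. The longest measured 3595 kb, and 12 reached 2000 kb. Every autosome held some, from 4 on chromosome 19 to 28 on chromosome 1. Just inside the limit, the 4 intervals of 840 kb had a median GC content of 39.9% and held 12 protein-coding transcription start sites (TSSs). Just outside it, the 8 intervals of 835 kb had a median of 38.4% and held 38.

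Most long intervals stood alone between shorter ones. In 28 places long intervals adjoined, and these held 57 of the 325 (17.5%). By total length the longest such run was a pair on chromosome 7, chr7:7112501-12017500, of 4905 kb. The run with the most intervals comprised 3 on chromosome 15, chr15:40197501-42947500, of 2750 kb. Zfpm2, a transcriptional cofactor gene of heart development, lay at its start and Angpt1, a vascular growth factor gene, at its end. The boundaries between these 3 had strengths of 1.72 and 0.512. Zfpm2 and Angpt1 were singled out after their positions were seen.

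**Figure D1:**
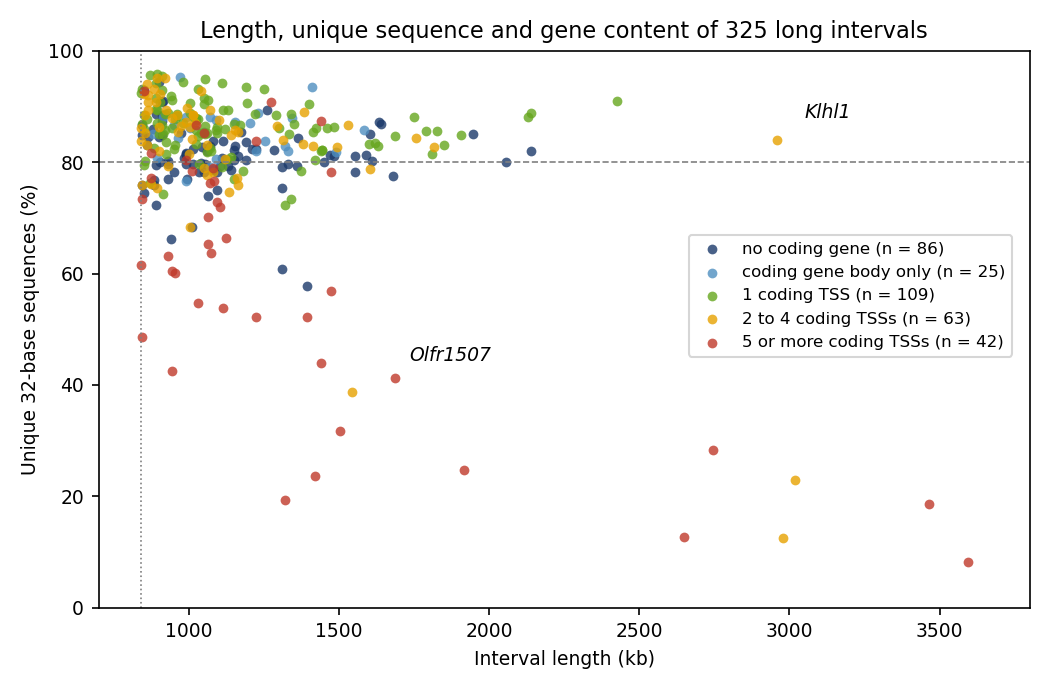
Each point is one of the 325 long intervals, with its length in kb on the horizontal axis and the share of its 32-base sequences that occur once in the genome on the vertical axis. Colours give the protein-coding gene content, the dashed line marks 80% unique sequence and the dotted line the length limit of 840 kb. The Klhl1 interval, at 2960 kb, is the longest point above the dashed line, and the Olfr1507 interval lies at 41.2% unique sequence.

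Protein-coding genes were sparse in the long intervals. They held 1134 protein-coding TSSs, which is 5.45% of the 20807 on the autosomes, in 15.9% of the assembled sequence. This is 2.96 per Mb, against 9.70 per Mb in the intervals under 840 kb. Averaged over chromosomes, the density was 3.17 ± 2.70 per Mb in long intervals and 9.75 ± 2.65 per Mb in the others (SD, 19 autosomes), and it was lower in long intervals on 19 of 19 autosomes. The autosomes are parts of 1 map and not replicates, so this SD describes the spread along the genome, and no test was made. Of the long intervals 111 had no protein-coding TSS (34.2%, 95% Wilson interval 29.2 to 39.5), against 1416 of the others (21.3%, 20.4 to 22.3). That share was higher in long intervals on 18 of 19 autosomes, with chromosome 13 as the exception. Wilson intervals cover counting error only, and neighbouring intervals are not independent.

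Other classes of gene did not all follow the protein-coding ones. Long noncoding RNA genes numbered 757 in the long intervals, or 1.98 per Mb, against 4.32 per Mb in the others. Small RNA genes stood at 1.66 per Mb in long intervals and 2.42 per Mb in the others. Pseudogenes, with all types counted together, were denser in the long intervals, at 5.37 per Mb against 4.52 per Mb. Within sequence that is at least 80% unique the order of the pseudogene densities turned, to 2.79 per Mb in long intervals and 3.68 per Mb in the others. There the protein-coding TSSs stood at 1.18 per Mb in long intervals and 9.89 per Mb in the others.

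Gene bodies left most of the typical long interval uncovered. Protein-coding gene bodies covered a median of 13.1% of a long interval and 53.7% of an interval under 840 kb. No protein-coding gene overlapped 86 long intervals (26.5%), against 889 of the others (13.4%). Matches to the CTCF core motif, searched on both strands, numbered 820 in long intervals, or 2.14 per Mb, against 5.70 per Mb in the others. By chromosome the motif stood at 2.15 ± 0.517 per Mb in long intervals and 5.72 ± 0.927 per Mb in the others (SD, 19 autosomes), lower in long intervals on 19 of 19. No match at all was found in 57 long intervals (17.5%), against 1775 of the others (26.8%). A long interval offers more sequence, and the part this played was not tested.

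Base composition was shifted towards A and T. The median GC content was 38.4% in long intervals (range 35.7 to 49.3) and 43.1% in the others. Averaged by chromosome it was 38.5 ± 0.731% in long intervals and 43.1 ± 1.01% in the others (SD, 19 autosomes), and it was lower in long intervals on 19 of 19. The ratio of observed to expected CpG dinucleotides had a median of 0.150 in long intervals and 0.202 in the others. Repeats, taken as the soft-masked bases of the reference, made up a median of 38.0% of long intervals and 29.8% of the others. By chromosome the repeat share was 38.6 ± 2.92% in long intervals and 29.8 ± 1.06% in the others, higher in long intervals on 19 of 19. Repeat classes (LINE, SINE, LTR) were not analysed here.

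Sequence that short reads can place was less abundant in long intervals. The median share of 32-base sequences found once in the genome was 83.7% in long intervals and 90.1% in the others. Sequences found 100 times or more made up a median of 9.16% in long intervals and 5% in the others. Of the long intervals, 230 held at least 80% unique sequence, 80 held 50 to 80% and 15 held less. Across the 325, the unique share was lower where the repeat share was higher (Spearman's rho -0.915, n = 325 intervals of 1 genome). The part that unplaceable reads played in the length of an interval was not tested. Within sequence at least 80% unique, the median GC content was still 38.4% in long intervals and 43.7% in the others.

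TSS density, GC content and CTCF density changed steadily with interval length rather than at 840 kb. From the shortest class to the longest, protein-coding TSSs stood at 16.3 per Mb below 200 kb, 11.6 at 200 to 400 kb, 5.59 at 400 to 600 kb, 3.90 at 600 to 840 kb and 2.96 in long intervals. Median GC content over the same classes was 44.4%, 43.3%, 40.9%, 39.6% and 38.4%. CTCF matches stood at 9.12, 6.32, 4.08, 2.91 and 2.14 per Mb. The share without a protein-coding TSS was 18.4%, 18.7%, 30.2%, 33.8% and 34.2%, so intervals of 600 to 840 kb were close to long ones. Small RNA genes stood at 1.66 per Mb in both of these classes.

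**Figure D2:**
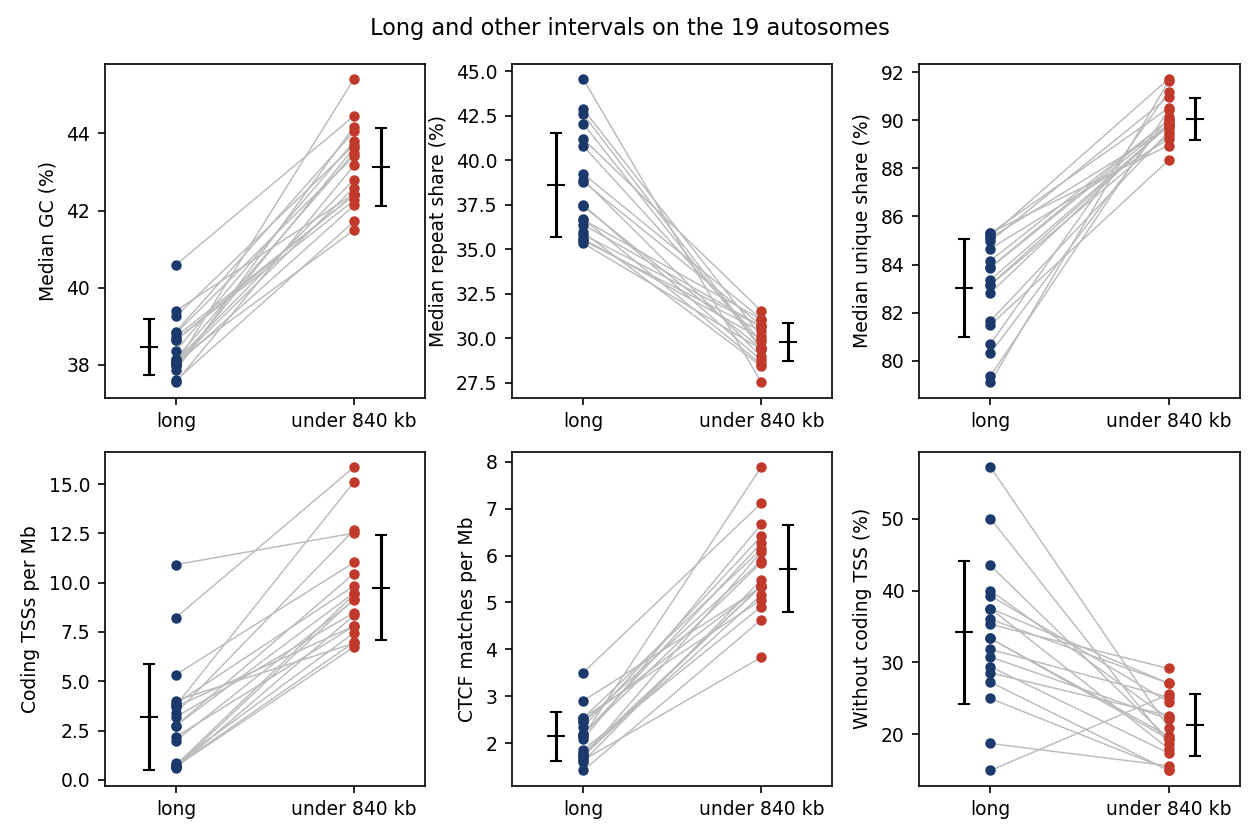
Each panel sets long intervals (left) beside intervals under 840 kb (right), with 1 point and 1 line per autosome, and black bars for the mean ± SD over 19 autosomes. The panels show median GC content, repeat share and unique 32-base share, protein-coding TSSs and CTCF motif matches per Mb, and the share of intervals without a protein-coding TSS. In the first 5 panels the order is the same on 19 of 19 autosomes, and in the last on 18.

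The long intervals fell into 2 unlike kinds by gene content. Gene-poor ones made up most of the list, with 86 that no protein-coding gene overlapped, 25 that held only part of a gene body, 109 with a single protein-coding TSS and 63 with 2 to 4. A minority of 42 held 5 TSSs or more, and these held 866 of the 1134 TSSs (76.4%). The gene-poor kind was mostly mappable, and 222 of its 283 intervals held at least 80% unique sequence. Of the 42 gene-rich ones, 8 did so, and their median unique share was 63.4%.

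The longest mappable gene-poor case was the interval of Klhl1, a Kelch-family gene expressed in brain. At 2960 kb it was the 5th longest of all and the longest of the 230 with at least 80% unique sequence, at 11.2 times the median autosomal interval. It held 83.9% unique 32-base sequences, 41.2% repeats and no unknown bases, with 36.3% GC. In 148 bins of 20 kb its GC content stayed between 33.3 and 40.4%, and the unique share fell under 50% in 1 bin.

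Only 2 protein-coding genes lay in the Klhl1 interval. Klhl1 itself (ENSMUSG00000022076.10, reverse strand, chr14:96102736-96519102) spans 416 kb, with its TSS 358 kb from the right boundary and 2602 kb from the left. The other, 4921530L21Rik, is a gene of 1.53 kb at chr14:95881254-95882780 on the forward strand. One long noncoding RNA gene (Gm33450), 16 processed pseudogenes and 4 small RNA genes made up the rest of the annotation. The 1964 kb between the left boundary and 4921530L21Rik held no protein-coding gene.

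The boundaries of the Klhl1 interval were unlike each other. The left one, at chr14:93915001-93920000, was strong with a strength of 1.59, and the right one, at chr14:96875001-96880000, was weak with 0.429. The boundary strength is the authors' own score, which separates strong from weak at 0.5. The nearest protein-coding TSS to the left was that of Pcdh9, a protocadherin gene of neuronal adhesion, 26.8 kb outside the interval. To the right it was that of Dach1, a developmental transcription factor gene, 1292 kb outside. Beyond the right boundary, 2 further intervals of 405 and 535 kb followed.

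**Figure D3:**
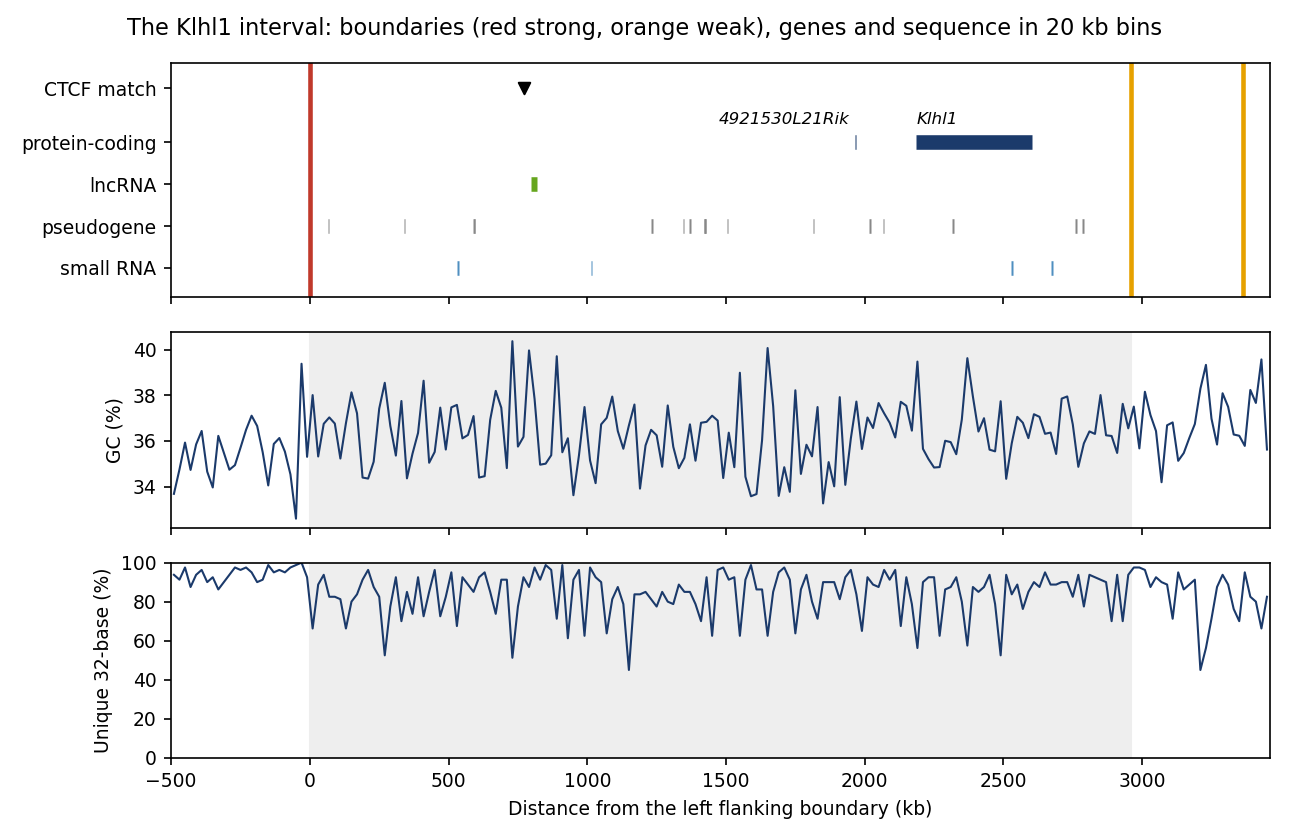
The horizontal axis of all panels is the distance in kb from the left boundary of the Klhl1 interval. The top panel shows boundaries (red strong, orange weak), genes by class and the single CTCF motif match, and the lower panels show GC content and the share of unique 32-base sequences in bins of 20 kb, with the interval shaded. Klhl1 lies in the right part of the interval, and GC content stays between 33.3 and 40.4% throughout.

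Several of the next longest mappable intervals held the TSS of a single protein-coding gene. Nr2f2, a nuclear receptor gene of vascular and neuronal development, was the sole protein-coding gene of 2425 kb, with its TSS 891 kb from the nearer boundary. That interval also held 21 long noncoding RNA genes, 90.9% unique sequence and 26.9% repeats. Nova1, a neuronal splicing factor gene, was the sole one of 1905 kb on chromosome 12, 876 kb from the nearer boundary. Trhde, which encodes an enzyme that degrades thyrotropin-releasing hormone, was the sole one with its TSS in 2130 kb on chromosome 10, where the body of Tph2 also reached in. Mgat4c, a glycosyltransferase gene, lay 761 kb from the nearer edge of 1825 kb, and 1700017N19Rik reached into that interval. Gm597 had the only protein-coding TSS of 1850 kb on chromosome 1.

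In other cases the only TSS lay at the edge. Tenm2, which encodes a teneurin of synaptic adhesion, had its TSS 8.46 kb inside the left boundary of the 2140 kb interval chr11:37227501-39367500. It is transcribed leftwards, so almost none of its 1229 kb lay in the interval. Tmeff2 had its TSS 1.85 kb inside the right boundary of 1810 kb on chromosome 1, and it too is transcribed out of the interval. Myc, the proto-oncogene, had its TSS 2.89 kb inside the left boundary of chr15:61982501-63732500, an interval of 1750 kb with 6 long noncoding RNA genes, and is transcribed into it. Tmeff2 and Myc were singled out after their values were seen.

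Over the 99 mappable intervals with a single protein-coding TSS, that TSS lay a median of 193 kb from the nearer boundary (quartiles 54.2 and 369 kb). In 16 of them it lay within 25 kb of a boundary, and in 13 it lay 500 kb or more from both. The group included Slitrk1, Cdh10 and Slitrk5, genes of synaptic and cell adhesion, at 757, 744 and 653 kb from the nearer edge. The median length of these 99 genes was 193 kb, and 22 of them reached 500 kb.

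The promoters of these sole genes were close in base content to those of all autosomal genes. RefSeq promoters matched 61 of the 99 genes within 1 kb of the annotated TSS, and their median GC content was 58.3% with a median of 15 CpGs. The 13553 autosomal protein-coding promoters matched in the same way had a median of 58.3% GC and 16 CpGs. At least 10 CpGs were present in 40 of the 61 (65.6%), against 65.0% of all autosomal ones. All 615 matched promoters of long intervals together, receptor families included, had a median of 46.7% GC and 3 CpGs. The Klhl1 promoter printed above lay below the sole-gene median at 47.0% GC. The Slitrk5 promoter, which lies downstream of the annotated TSS, lay above that median at 74.3%.

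Among the 10 longest mappable intervals, 3 were free of any protein-coding gene. The longest was chr6:74102501-76242500, at 2140 kb with 81.9% unique sequence and 36.7% GC. It held 1 long noncoding RNA gene, 6 pseudogenes, 5 small RNA genes and 2 CTCF matches, and its nearest protein-coding TSSs were 633 kb to the left and 255 kb to the right. The next was chr4:78522501-80577500, at 2055 kb, between Ptprd, a synaptic receptor phosphatase gene, 311 kb to the left and Tyrp1, a pigment synthesis gene, 257 kb to the right. The last was chr17:76227501-78172500, at 1945 kb, with Crim1 27.7 kb to its right. Their flanking boundaries were mostly weak, with strengths of 0.535 and 0.206, 0.206 and 0.282, and 0.203 and 0.304.

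Further gene-free mappable intervals followed in length. A pair of intervals on chromosome 18, the longer of 1640 kb, lay between Celf4, an RNA-binding protein gene of neurons, and Pik3c3, a lipid kinase gene. Over all 52 mappable gene-free intervals the median GC content was 37.3%, the repeat share 39.3% and the CTCF density 1.30 per Mb. The 534 gene-free intervals under 840 kb with at least 80% unique sequence had 40.3% GC, 33.3% repeats and 2.78 CTCF matches per Mb. With no limit on unique sequence, the 86 long gene-free intervals had 37.5% GC, 42.8% repeats and 1.24 CTCF matches per Mb, against 38.9%, 39.7% and 2.40 per Mb in the 889 under 840 kb. Gene-free here means free of protein-coding genes. The 86 long ones also held 139 long noncoding RNA genes and 70 gene segments of antigen receptors. The neighbouring genes named here were chosen after their positions were seen.

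Very long genes covered a few of the long intervals almost whole, with 9 covered over 90% by 1 gene. Of 218 autosomal protein-coding genes of 500 kb or more, 52 had more than 50% of their body in 1 long interval (23.9%), against 1149 of all 20807 autosomal protein-coding genes (5.52%). A long gene needs a long interval to hold it, so this share follows in part from the rule. Magi2 (a synaptic scaffold gene), Lrrc4c (a netrin-G ligand gene), Nkain2 and Cdh12 (a cadherin gene) ran through their intervals from end to end, so that the whole stretch between neighbouring boundaries lay inside 1 gene. Lingo2 covered 95.9% of 950 kb. The longest was Lrp1b, a gene of the lipoprotein receptor family of 2058 kb, with 71.5% of its body in an interval of 1585 kb at 85.8% unique sequence.

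Other genes among the longest in this set lay only partly in a long interval, with 1 exception. Nrxn3, a neurexin gene of 1612 kb, had 73.3% of its body in 1410 kb. Fhit, which lies over a fragile site in human, had 55.98% of 1612 kb in an interval of 1090 kb. Pcdh15, a protocadherin gene of hearing, had 69.8% of 1550 kb in 1320 kb, and Gpc5, a glypican gene, had 72.8% of 1433 kb in 1790 kb. Csmd3, a gene of 1211 kb, lay wholly within 1460 kb. In none of Lrp1b, Nrxn3, Fhit, Pcdh15, Magi2, Gpc5, Lrrc4c and Lingo2 did the TSS fall in the same interval as most of the body, whereas for Csmd3 it did.

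Genes in the mappable long intervals tended to be long. Genes with their TSS in any long interval had a median length of 8.09 kb, and the median was 32.5 kb for the 312 in intervals with at least 80% unique sequence. Genes with their TSS elsewhere on the autosomes had a median of 18.2 kb. Genes of 500 kb or more made up 10.6% of those 312 and 0.925% of the 19673 elsewhere. The rule acts on distance between boundaries, and a gene of 500 kb cannot lie inside 1 short interval, so these shares are not independent of interval length.

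The gene-rich kind was led by receptor families. The longest interval of all, chr7:19972501-23567500 at 3595 kb, held 89 protein-coding TSSs from Nlrp9b to Vmn1r168, of which 51 carried vomeronasal receptor names. Only 8.17% of its 32-base sequences were unique, and repeats made up 65.1%. The next, chr7:7112501-10577500 at 3465 kb, ran from Zfp954 to Vmn1r68, held 27 vomeronasal receptors among 35 genes and was 18.6% unique. Their low unique shares stand beside their lengths, and the part these played was not tested.

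Odorant receptor genes filled others. The interval chr2:86857501-87927500 held 48 receptors among 51 genes, from Gm13723 to Olfr1154, in 1070 kb at 76.2% unique sequence. The interval chr19:12832501-13937500 held 42 among 43, from Gm5244 to Olfr1505. On chromosome 11 an interval of 1065 kb from Aspa to Olfr411 held 29 among 34. Among the 42 intervals with 5 TSSs or more, odorant receptors made up more than 50% of the TSSs in 7, vomeronasal receptors in 3 and zinc finger genes in 2.

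Gene-rich intervals not led by receptors held other clustered families. At chr3:92007501-92882500, 875 kb within the epidermal differentiation cluster held 41 genes from Pglyrp3 to 2310050C09Rik. Loricrin, involucrin and small proline-rich and late cornified envelope genes of skin were among them. Also on chromosome 3, chr3:96047501-96922500 ran from Vps45 to Gpr89 with 37 genes, 10 of them replication-dependent histone genes, at 81.6% unique sequence and 45.4% GC. On chromosome 4, an interval of 1320 kb from Cntfr to 1700022I11Rik held 36 genes at 19.3% unique sequence. A further one of 1225 kb from Oog4 to Aadacl4 held 32 genes, with members of the Oog, Pramef and Pramel families among them. On chromosome 14, 930 kb from Gm49342 to Ear6 held 29 genes, with secreted ribonucleases among them. Among the longest intervals, chr7:31217501-33962500 (2745 kb) opened with the secretoglobin genes Scgb2b2, Scgb1b2 and Scgb2b3, and chr5:93327501-95977500 (2650 kb) with Gm16427, C87414 and Gm7792. The chromosome 12 intervals of 3020 and 2980 kb were of the gene-poor kind and held 2 protein-coding TSSs each (5730507C01Rik and Gm21863, and Gm10330 and 9030624G23Rik), and the second was 12.6% unique.

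The interval of Olfr1507, the receptor expressed by the sorted neurons, combined receptors with an immune locus. It measured 1685 kb (chr14:52352501-54037500), held 7 odorant receptor genes from Olfr1513 to Olfr1507 and was 41.2% unique. It also held 113 gene segments annotated as parts of antigen receptors, 108 of them named as variable segments of the T cell receptor alpha chain and 3 of the delta chain, which are joined into working genes only in T cells. Such segments are not counted among the protein-coding genes, so its 7 TSSs understate its content. The neurons carry a reporter allele of this receptor gene, and the reference sequence used for the join does not.

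Segments of antigen receptors lay in few places. Of 494 autosomal segments, 222 (44.9%) lay in 4 long intervals, where all 325 together cover 15.9% of the assembled autosomes and hold 5.45% of protein-coding TSSs. Segments of a locus lie side by side, so these counts are not independent. Besides the alpha-chain locus these were the kappa light chain locus on chromosome 6, in chr6:68632501-70027500 with 45 segments and chr6:67692501-68632500 with 25, which adjoin at a weak boundary of strength 0.240. The last was the T cell receptor beta locus, chr6:40752501-41762500, where 39 segments lay with 20 protein-coding genes, trypsinogens among them. The unique share was 41.2% in the alpha-chain interval, 57.7 and 66.3% in the kappa-chain intervals and 78.4% in the beta-chain interval. These segments were singled out after their positions were seen.

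Gene families and functions differed in how many members had a TSS in a long interval, and the share over all 20807 autosomal protein-coding genes was 5.45%. Vomeronasal receptors had 122 of 327 (37.3%) and odorant receptors 197 of 1128 (17.5%). In intervals with at least 80% unique sequence, which held 1.4995% of all genes, there were 17 vomeronasal and 0 odorant receptors. Zinc finger genes had 28 of 385 (7.27%), a share near that of all genes.

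Genes of neuronal adhesion and synapse organisation stood at 20 of 91 (21.98%, 95% Wilson interval 14.7 to 31.5), and 19 of these lay in mappable intervals. They were led by Tenm2, Slitrk1, Cdh10 and Slitrk5, and the others included further cadherins, contactins and Csmd genes. Some of them, such as Tenm2, Nlgn1 and Csmd3, are genes of 500 kb or more, and others, such as Slitrk1 and Slitrk5, are not. Of all genes of 500 kb or more, 36 of 218 (16.5%) had a TSS in a long interval, 33 of them in mappable ones. That share lies within the Wilson interval of the adhesion genes, and the part that gene length played was not tested. Subunits of ion channels and neurotransmitter receptors had 15 of 195 (7.69%, 4.72 to 12.3), with Gria1, Glrb and Gria2, all of glutamate or glycine receptors, among them. Developmental transcription factors had 13 of 202 (6.44%, 3.80 to 10.7), with Nr2f2, then Foxa2 and Pax1 in a shared interval of 1275 kb, then Sox11. The Wilson intervals of the subunits and of the transcription factors both include the 5.45% of all genes. Replication-dependent histones had 10 of 67, all in the interval on chromosome 3.

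The housekeeping lists, the cytochromes P450, the keratins and the lists of cell types of the olfactory mucosa had at most 1 member each in long intervals. The cytosolic ribosomal protein genes had 1 of 81 (Rpl10l), the respiratory chain 1 of 100 (Uqcrb), the cytochromes P450 1 of 99 (Cyp7b1), the proteasome 0 of 39 and the keratins 0 of 53. Of 27 autosomal marker genes of mature olfactory sensory neurons 0 lay in a long interval, and the Wilson interval reaches 12.5%, which includes the share over all genes. Immature neuron markers stood at 0 of 11, sustentacular markers at 0 of 10, basal cell markers at 0 of 11 and markers of other mucosal cells at 0 of 10. Lists this short allow no reading against the 5.45% of all genes.

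MicroRNA genes in long intervals were mostly in clusters. Of 919 autosomal hairpins in RefSeq, 94 (10.2%) lay in 23 long intervals, a share below the 15.9% of assembled sequence that long intervals cover and above the 5.45% of protein-coding TSSs. Most of the 94 lay in a pair of these intervals. The first, chr12:109367501-110407500, held 58 hairpins in 1040 kb beside 3 protein-coding genes, Dlk1, Rtl1 and Dio3. It is the imprinted Dlk1 to Dio3 domain, in which the paternal copy expresses the protein-coding genes and the maternal copy the noncoding RNAs. It was unlike most long intervals in base content, with 46.9% GC, 24.5% repeats, 92.8% unique sequence and 11 CTCF matches. Both its boundaries were strong, at 0.985 and 2.91.

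The second, chr7:60662501-62342500, held 13 hairpins of the Mir344 family in 1680 kb with no protein-coding gene. It had 37.4% GC, 77.5% unique sequence, 2 CTCF matches and weak boundaries of 0.261 and 0.380. The mature sequences of this family are shown because copies of 1 microRNA family fill part of an interval without protein-coding genes, with bases 2 to 8, the seed that pairs with targets, in capitals. Of its mature names, 6 shared the seed of the first 4 lines, and pairs of 3′ arms shared others. From the chromosome 12 domain, pairs that share a seed are shown for comparison. These clusters were singled out after their positions were seen.
mmu-miR-344-5p: aGUCAGGCuccuggcuagauuccagg
mmu-miR-344b-5p: aGUCAGGCuccuggcuaaaguuc
mmu-miR-344c-5p: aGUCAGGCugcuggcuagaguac
mmu-miR-344g-5p: aGUCAGGCuccuggcaggagu
mmu-miR-344-3p: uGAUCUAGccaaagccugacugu
mmu-miR-344c-3p: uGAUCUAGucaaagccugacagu
mmu-miR-344d-3p: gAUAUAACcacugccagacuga
mmu-miR-344e-3p: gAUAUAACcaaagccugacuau
mmu-miR-379-5p: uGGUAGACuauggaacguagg
mmu-miR-1193-5p: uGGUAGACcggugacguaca
mmu-miR-494-5p: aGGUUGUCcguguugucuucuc
mmu-miR-410-5p: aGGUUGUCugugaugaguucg
The chromosome 12 domain held 104 different seeds among 114 mature entries, whereas the Mir344 interval held 11 among 25.

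The boundaries that flanked long intervals were weak more often than other boundaries. There were 621 of them, since 29 flanked a long interval on both sides. Of these 279 were strong (44.9%, 95% Wilson interval 41.1 to 48.9), against 3637 of 6373 other autosomal boundaries (57.1%, 55.8 to 58.3). Their median strength was 0.440, against 0.592. Strength comes from the same boundary list as the positions that chose the intervals, so these values describe the flanks and support nothing further.

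The strongest flanks nevertheless reached high values. Among strong boundaries alone, the median was 0.984 at the flanks of long intervals and 0.933 elsewhere, and the highest 10% began at 2.02 against 1.74. A strength of 2 or more was found in 31 flanks and 193 other boundaries. The strongest flank, 3.29 at chr2:37350001-37355000, overlapped Pdcl and closed an interval of 28 odorant receptor genes. It was followed by flanks whose nearest protein-coding TSSs were those of Hsf2, a heat shock factor gene (2.93), Ppp2r5c, a phosphatase subunit gene (2.91, at the end of the Dlk1 to Dio3 domain), Gm6793 (2.80) and Efhb (2.65). The weakest lay at 0.2002 to 0.202, with Gm5415, Rapgef2, Epha7, Cdh11 and Cdh8 as the nearest TSSs at 46.0 to 1459 kb.

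Promoters and CTCF motifs were fewer at the flanks than at other boundaries. Within 10 kb of the boundary a protein-coding TSS lay at 69 of 621 flanks (11.1%) and at 31.5% of other boundaries. A CTCF match lay at 89 flanks (14.3%) and at 25.6% of other boundaries. Among strong boundaries alone the shares with a TSS were 16.5% of flanks and 35.7% of others, and with a CTCF match 21.9% and 31.4%. Median GC content around the boundary was 39.6% at flanks and 43.5% at the others.

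Flank strength varied with the gene content of the interval between. Strong boundaries made up 31.4% of the flanks of the 86 intervals that no protein-coding gene overlapped and 32% for the 25 with only a gene body. The share was 47.2% for the 109 with a single TSS, 53.2% for the 63 with 2 to 4 and 59.5% for the 42 with 5 or more. The median strength over the same classes was 0.357, 0.351, 0.455, 0.513 and 0.632. Over all long intervals, 97 lay between weak boundaries on both sides (29.8%), 166 had 1 strong flank (51.1%) and 62 had both strong (19.1%). Among intervals under 840 kb the shares were 18.6%, 49.9% and 31.6%, and among those of 600 to 840 kb alone 27.7%, 48.2% and 24.1%. Of the 12 longest, from 2000 kb up, 10 had 1 strong and 1 weak flank, like that of Klhl1.

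**Figure D4:**
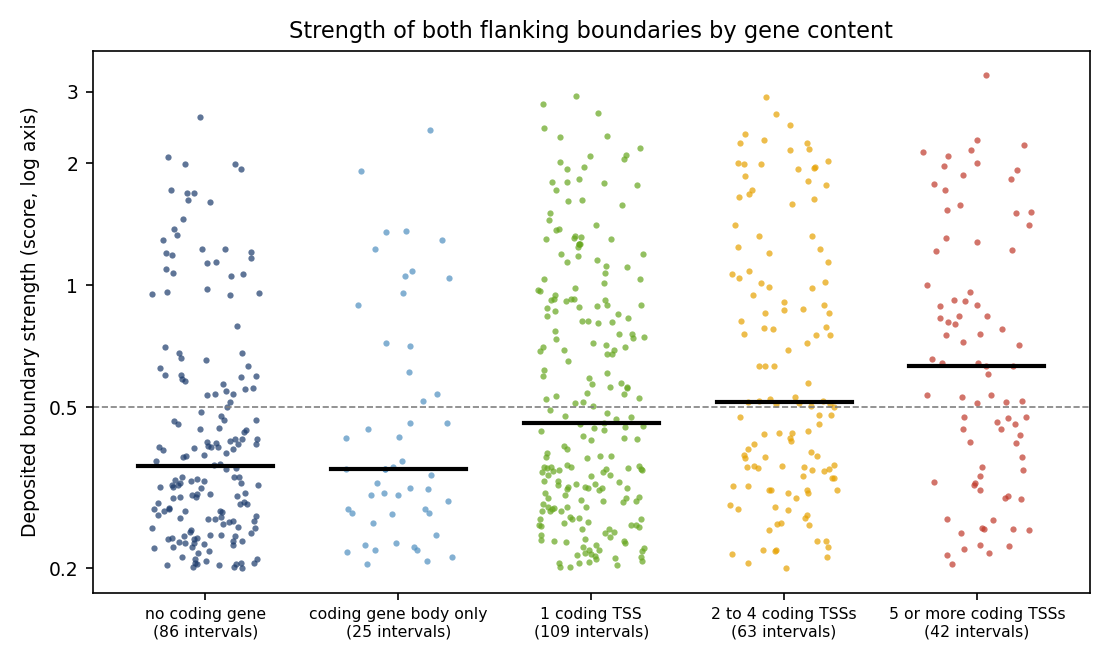
Each point is 1 flank of a long interval, with its deposited strength score on a log axis, grouped by the protein-coding content of the interval. Black bars are medians, which run 0.357, 0.351, 0.455, 0.513 and 0.632 in the order shown, and the dashed line marks 0.5, where the deposited class changes from weak to strong. A boundary between adjoining long intervals appears as a point for each.

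Genes and motifs inside long intervals lay towards the boundaries, as they did in shorter intervals. In the 230 mappable long intervals, protein-coding TSSs stood at 3.91 per Mb within 25 kb of a flank, 1.83 at 50 to 100 kb and 0.924 at 300 to 420 kb. In intervals under 840 kb the density fell from 14.4 per Mb within 25 kb to 3.75 at 300 to 420 kb. In those of 400 to 840 kb alone it fell from 7.11 to 3.75 per Mb. CTCF matches fell likewise, with 4.52 per Mb within 25 kb and 1.47 at 300 to 420 kb in mappable long intervals. Over the same distances they fell from 10.8 to 2.31 per Mb in intervals under 840 kb. In those of 400 to 840 kb alone they fell from 6.87 to 2.31 per Mb. At 300 to 420 kb all long intervals had 2.39 TSSs and 1.52 CTCF matches per Mb, against 3.75 and 2.31 in the 443 shorter intervals that reach so far from a boundary. At equal distance from a boundary the counts were thus lower in long intervals, with no test made.

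The direction of the CTCF motif also changed with distance. Within 25 kb of a flank, 39 of 52 matches in mappable long intervals (75%) read into the interval from the nearer boundary. At 300 to 420 kb 37 of 81 did (45.7%). Over all long intervals, with no limit on unique sequence, the shares were 67.2% (45 of 67) within 25 kb and 47.5% at 300 to 420 kb. In intervals under 840 kb, also without that limit, they were close to these, at 65.8% within 25 kb and 50.5% at 300 to 420 kb. GC content in mappable long intervals was 40.1% within 25 kb of a flank and 38.9% at 300 to 420 kb. Their unique share was lowest next to the flanks, at 81.6% within 25 kb against 86.8% at 25 to 50 kb. In intervals of 400 to 840 kb, without the limit on unique sequence, it was 82.1% within 25 kb and 86.1% at 25 to 50 kb. There it was lowest at 300 to 420 kb, at 81.8%.

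**Figure D5:**
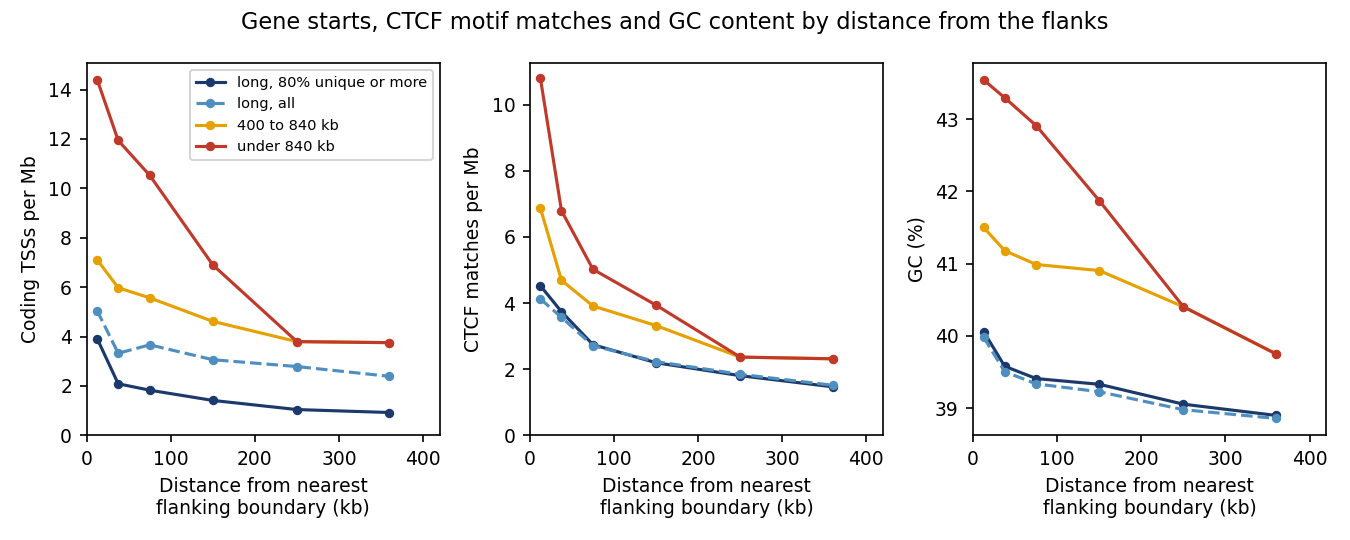
The horizontal axis is the distance in kb from the nearer flanking boundary, and the panels give protein-coding TSSs per Mb, CTCF motif matches per Mb and GC content in distance classes drawn at their midpoints. Lines stand for mappable long intervals, all long intervals, intervals of 400 to 840 kb and all intervals under 840 kb. The long intervals lie lowest in each panel at every distance, at 0.924 TSSs per Mb in the mappable ones at 300 to 420 kb.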

How the data were processed

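In situ Hi-C of 2 biological replicates was pooled by the authors, and per the series design text boundaries were listed from the combined GRCm38 matrix. The deposited strength is a score per boundary. Not given in the sources used here are its scale, the boundary caller with its window, and the aligner, and depth per replicate is unknown. On the list itself, the lowest strong boundary scored 0.500 and the highest weak one 0.49988.

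Intervals ran between the midpoints of neighbouring boundaries of 5000 bp, with Python 3.11.15, numpy 2.4.6, pandas 2.3.3 and numba 0.67.0. They were joined to the GRCm38.p6 sequence and GENCODE M21 genes of the same build. A TSS is the 5′ end of a gene model. Unique sequence is the share of 32-base sequences, taken every 250 bp, found once in the genome on either strand, and the count was tested on simulated sequence with planted copies. CTCF matches are exact hits of a 12-letter degenerate core on either strand. The reference is of another strain than the mice.

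The rule acts on boundary positions, so lengths, positions and strengths are descriptions, and no test was made. The members, the gene lists and the rule for named genes (Klhl1 and Olfr1507, the genes of the longest, the longest mappable and the gene-richest intervals, the genes nearest to the strongest and weakest flanks, leading list members and the longest genes) were chosen with earlier results of these data known. Some genes that the rule names are not reported here. Alternatives changed the length limit, the limits on unknown and unique bases, the boundaries used, the edges and the gene counting.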

Additional observations from a re-analysis of the deposited data

Results flagged for a closer look

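Signals appeared in data that the comparisons above left out. The X chromosome held 25 long intervals under the same limits, of 372 (6.72%), against 4.66% of the autosomal intervals. The longest measured 2845 kb at 15.7% unique sequence, and another of 1880 kb at 84.9% unique sequence held no protein-coding TSS. On the X the median unique share was 76.0% in the 25 long intervals and 79.4% in the intervals under 840 kb.

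The 15 autosomal intervals of 840 kb or more that were set aside held 5.26 to 45.7% unknown bases. The longest reached 3750 kb on chromosome 14. They included the major urinary protein genes, a defensin cluster on chromosome 8 and, at 5.26% unknown bases, the interval with Ube3a and Snrpn. Their median unique share was 42.5%.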

How the results depend on the processing

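No replicate could be left out, and no paired analysis was possible because the result comes from no test and the list pools both replicates. With strong boundaries alone the number of long intervals was 710, the median GC content 39.96%, the CTCF density 2.88 per Mb and the share without a protein-coding TSS 8.03%, and with a length limit of 1000 kb the number was 206. With strong boundaries alone, intervals under 840 kb had 44.3% GC, 7.36 CTCF matches per Mb and 5.77% without a TSS. Among intervals with at least 80% unique sequence the median repeat share was 35.02% and the unique share 86.1%. The other 43 of 50 alternative values moved by less than the SD over autosomes or, for the count of intervals, by less than 1.5 times. The SD over autosomes is wide for the TSS density (2.70 per Mb), so a density of 1.18 per Mb in mappable intervals falls within it. Depth and bin size set which boundaries a map can show, and neither could be varied here.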

Other observations

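Sox4, Sox6 and Irx2 with Irx4 were among the other developmental regulator genes with a TSS in long intervals. Sall1 had the only protein-coding TSS of 1055 kb at 95% unique sequence. Mef2c, a transcription factor gene of neurons and muscle, had the only protein-coding TSS of 1350 kb. Ppargc1a, a regulator of mitochondrial genes, had that of 1400 kb at 90.4% unique sequence. Sall1, Mef2c and Ppargc1a were singled out after their values were seen.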
